A study of Mus musculus with 12 samples.

Results

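The genes examined here make prostaglandins or remove them, and are read by 9 of the 45037 probe sets of the array other than controls. They are Hpgd (1419905_S_AT and 1419906_AT), Ptgs1 (1436448_A_AT), Ptgs2 (1417262_AT and 1417263_AT), Ptges (1439747_AT and 1449449_AT), Ptgis (1448816_AT) and Ptgds (1423859_A_AT). A probe set is a group of short probes for the same transcript. The 9 were picked by their identifiers, with earlier results of these arrays known, the low Hpgd signal in tumors among them, and the gene names come with that selection. Differences between tumors and lungs are therefore described and not tested.

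Lung adenocarcinomas (lung tumor, 4 arrays) and the normal lung next to them (adjacent normal lung, 4 arrays) came from FVB mice that carry wild-type human cyclin E behind the human surfactant protein C promoter, and non-transgenic lung (4 arrays) came from FVB mice without it. The promoter is that of a gene of alveolar type II cells, the surfactant-making cells of the air sacs, and the adjacent normal lung carries the transgene as the tumor does. All 12 samples were labelled male, the mice were 7 to 11 months old, and the labels give no agent for any group. The labels say that tissues were identified by gross pathology, and the paper calls the adjacent lung normal by histopathology. Each sample is a piece of tissue with several cell types, and fewer cells of a type cannot be told apart from less RNA per cell. By the design text, 4 transgenic mice gave both tissues, and the sample codes run in the same order as the numbers of tumors and adjacent normal lungs, while the paper speaks of 12 independent samples.

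Prostaglandins are short-lived lipid signals made from arachidonic acid. The cyclooxygenases Ptgs1 and Ptgs2 turn arachidonic acid into a common precursor, and terminal synthases turn the precursor into single prostaglandins. Hydroxyprostaglandin dehydrogenase, the product of Hpgd, oxidizes prostaglandins in the first step of their inactivation, and the lung is known as an organ that clears prostaglandins from the circulating blood.

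The stretches around the annotated starts of 4 of these genes are shown. Hpgd and Ptgs2 had lower signals in tumors, and Ptgs1 and, in 1439747_AT, Ptges had higher ones. Each stretch is 280 bases from RefSeq (GRCm38.p6), 5′ to 3′ on the strand of the gene, with 250 bases before the start and 30 after it. The starts used for Ptgs1 and Ptges lie inside the span annotated for the gene. Capitals mark matches to 6 motifs searched on both strands: the TATA box (TATAAA), the CCAAT box (those letters), the GC box (GGGCGG), the E-box (CACGTG), the core of the cyclic AMP response element (TGACGT) and the AP-1 site (TGACTCA).
Hpgd, chr8:56294302-56294581, plus strand: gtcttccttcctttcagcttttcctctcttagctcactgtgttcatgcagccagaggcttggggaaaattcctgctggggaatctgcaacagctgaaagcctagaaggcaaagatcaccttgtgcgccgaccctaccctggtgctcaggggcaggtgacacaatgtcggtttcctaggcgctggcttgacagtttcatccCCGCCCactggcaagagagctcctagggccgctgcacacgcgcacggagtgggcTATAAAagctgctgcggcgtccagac
Ptgs2, chr1:150099781-150100060, plus strand: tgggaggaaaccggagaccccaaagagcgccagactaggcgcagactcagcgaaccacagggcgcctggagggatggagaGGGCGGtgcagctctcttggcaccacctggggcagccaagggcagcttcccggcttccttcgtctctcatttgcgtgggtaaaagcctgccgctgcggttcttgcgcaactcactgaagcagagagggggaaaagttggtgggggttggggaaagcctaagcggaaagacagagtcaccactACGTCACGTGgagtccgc
Ptgs1, chr2:36230176-36230455, plus strand: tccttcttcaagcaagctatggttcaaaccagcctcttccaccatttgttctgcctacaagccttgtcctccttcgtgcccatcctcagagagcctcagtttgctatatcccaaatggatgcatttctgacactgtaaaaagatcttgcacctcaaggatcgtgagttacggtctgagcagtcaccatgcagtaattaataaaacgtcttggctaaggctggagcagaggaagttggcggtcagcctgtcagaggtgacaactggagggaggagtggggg
Ptges, chr2:30903268-30903547, minus strand: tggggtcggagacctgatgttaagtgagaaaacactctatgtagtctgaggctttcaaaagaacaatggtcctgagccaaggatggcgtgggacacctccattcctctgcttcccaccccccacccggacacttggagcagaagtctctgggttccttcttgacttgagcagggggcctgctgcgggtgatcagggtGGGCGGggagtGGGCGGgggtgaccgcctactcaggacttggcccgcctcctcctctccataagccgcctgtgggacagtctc
The Hpgd stretch held a GC box on the opposite strand at bases 201 to 206 and a TATA box at bases 255 to 260, counted from the first base shown and so just after the annotated start. The Ptgs2 stretch held a GC box at bases 81 to 86. After the annotated start it held a response element core on the opposite strand at bases 263 to 268. That core shares 2 bases with the E-box at 267 to 272. The Ptges stretch held a pair of GC boxes, at bases 198 to 203 and 209 to 214. No letters of these motifs were found in the Ptgs1 stretch. Of 32851 mouse promoters cut in the same way, 13.1% held the TATA box, 36.1% the CCAAT box, 34.7% the GC box, 6.79% the E-box, 7.26% the response element core and 4.94% the AP-1 site. The promoter of Ptgds, on chromosome 2, had an AP-1 match. Ptgis, also lower in tumors, was not matched in the promoter table and so is not shown. These matches describe the letters only, and no binding was measured.

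Array medians lay between 4.10 and 4.13 on the log2 scale for lung tumors, 4.17 and 4.38 for adjacent normal lungs, and 4.18 and 4.19 for non-transgenic lungs. Tumor 2 and adjacent normal lung 3 stood apart. Over the 23538 probe sets tested, the mean Euclidean distance to the normal lungs was 112.0 for tumor 2 and 169.3 to 177.4 for the other tumors, and that of adjacent normal lung 3 to the other lungs was 105.7, where the other lungs had 60.6 to 72.8. RNA degradation raises the 3′ over the 5′ control probes of a transcript. That excess, averaged over 2 housekeeping transcripts, was 0.30, 0.61, 0.56 and 0.54 in tumors 1 to 4, between 0.39 and 0.57 in adjacent normal lungs, and between 0.35 and 0.49 in the non-transgenic ones. Its part in the results was not tested. No probe set besides these and the controls could be named, so the labelled tissues were not checked against cell type markers.

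Of the 9 probe sets, 5 were lower and 2 were higher in all 4 tumors than in all 4 adjacent normal lungs, and 5 and 2 lay outside the non-transgenic lungs in the same way, in a comparison that uses the same 4 tumors. Among all 45037 probe sets, 9.13% were lower and 6.57% higher without overlap against adjacent normal lung, and 9.97% and 9.65% against non-transgenic lung. By limma, 28.7% of the 23538 probe sets tested passed an adjusted p of 0.05 for tumor against adjacent normal lung and 32.5% against non-transgenic lung. Nothing is read from the members' counts, because tumor signals were known when they were chosen. The median difference between tumor and adjacent normal lung was -0.71 on the log2 scale over the 9 and -0.0066 over all. The former is the value of 1417263_AT, the fainter Ptgs2 probe set, and nothing is read from it for the same reason. At least 4 arrays exceeded 4.18, the median of the whole table, for 7 of the 9, which entered the tests of the lungs, and the fainter probe sets of Ptgs2 and Ptges did not.

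**Figure D1:**
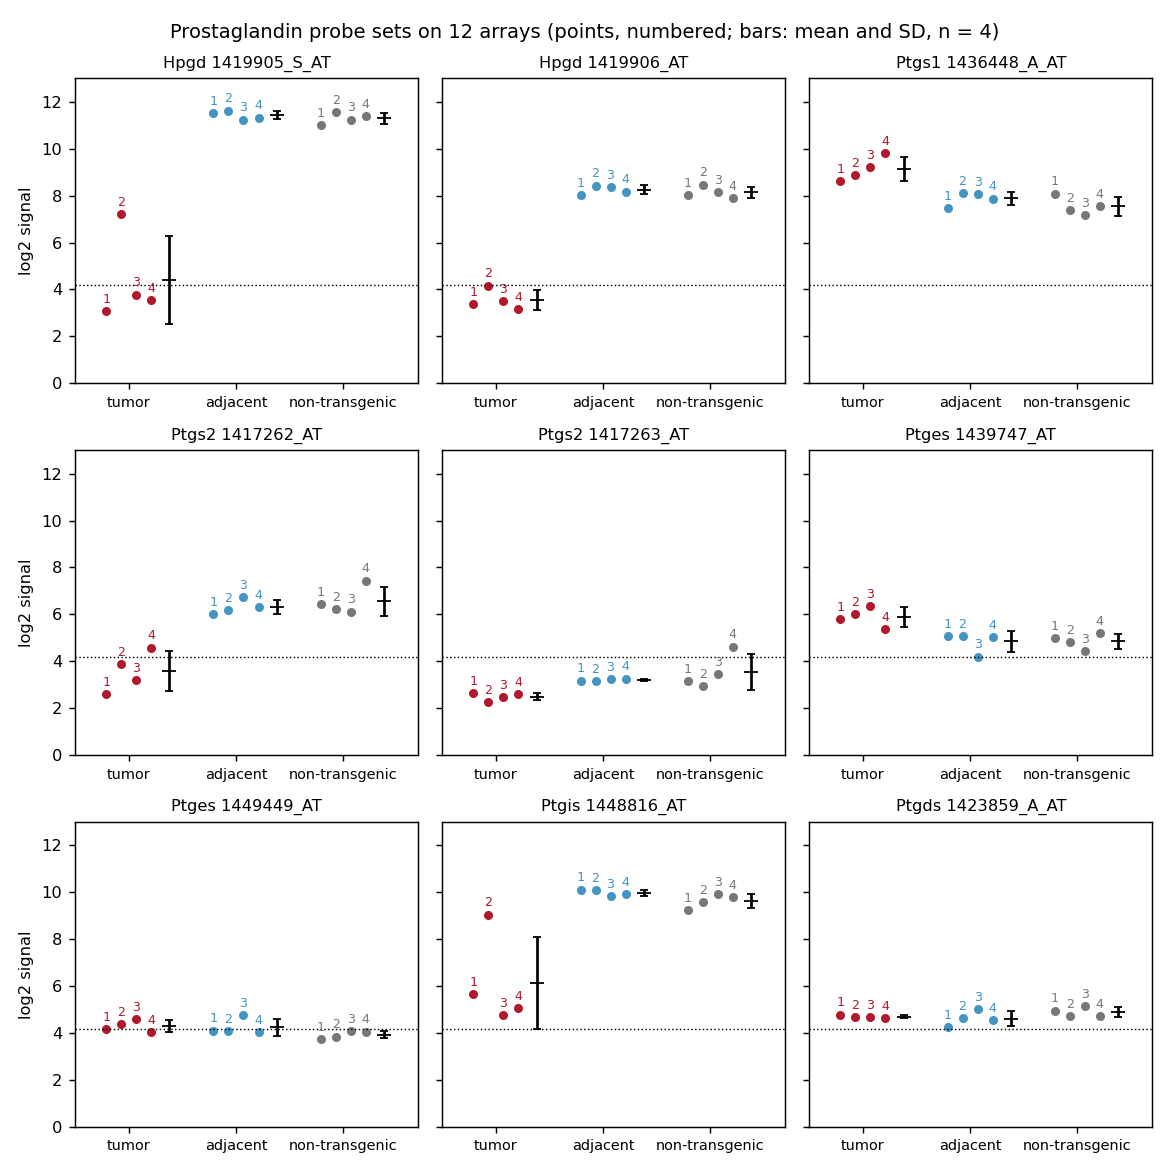
Log2 signal (vertical axes) of the 9 probe sets in lung tumors, adjacent normal lungs and non-transgenic lungs, with each array as a numbered point, the mean and SD of 4 arrays as black bars, and the table's median of 4.18 as a dotted line. Tumor 2 is the highest tumor for Hpgd (7.21) and Ptgis (9.05), while Ptgs1 is at least 8.63 in every tumor and at most 8.12 in every lung.

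Hpgd had the largest decrease of the array. Probe set 1419905_S_AT, whose suffix marks probes that can match more than 1 transcript, had log2 signals of 3.09, 7.21, 3.78 and 3.56 in lung tumors 1 to 4, 11.52, 11.63, 11.24 and 11.33 in adjacent normal lungs 1 to 4 and 11.02, 11.57, 11.24 and 11.41 in non-transgenic lungs 1 to 4. All 8 lungs were bright and lay within 0.61 log2 units of each other, while tumors 1, 3 and 4 were below the table's median and tumor 2 was between them and the lungs. The mean was 4.41 ± 1.89 in lung tumors and 11.43 ± 0.18 in adjacent normal lungs (SD, n = 4 each), a difference of -7.02 (limma standard error 0.68), or 129.9-fold lower in tumors, and none of the 45036 other probe sets was lower by more. Without tumor 2 the difference was -7.96, or 248.2-fold. Against the 11.31 ± 0.24 of non-transgenic lungs (SD, n = 4) it was -6.90. Whether so dim a signal exceeds background was not measured, so the size of these folds is uncertain.

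The other Hpgd probe set, 1419906_AT, had log2 signals of 3.39, 4.16, 3.50 and 3.16 in lung tumors 1 to 4, 8.02, 8.43, 8.37 and 8.17 in adjacent normal lungs 1 to 4 and 8.03, 8.47, 8.16 and 7.90 in non-transgenic lungs 1 to 4. No tumor reached the table's median and no lung was below 7.90, so that the groups were far from overlapping. The mean was 3.55 ± 0.43 in lung tumors and 8.25 ± 0.19 in adjacent normal lungs (SD, n = 4 each), a difference of -4.70 (limma standard error 0.21), or 25.9-fold lower in tumors. This was exceeded by the decrease of 26 of the 45036 others. Tumor 2 was the highest tumor here too, but all 4 tumors were so dim that the size of the distance between them and the lungs is uncertain. Hpgd lies on chr8:56294552-56321046 (GRCm38.p6).

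Of the cyclooxygenases, Ptgs1 and Ptgs2 differed from lung in opposite directions. Ptgs1, the form made in many tissues without a stimulus, had log2 signals of 8.63, 8.89, 9.22 and 9.80 in lung tumors 1 to 4, 7.48, 8.12, 8.05 and 7.87 in adjacent normal lungs 1 to 4 and 8.09, 7.38, 7.16 and 7.55 in non-transgenic lungs 1 to 4. Every tumor was above every lung, by 0.51 log2 units between the lowest tumor and the highest lung, and tumor 2 was among the other tumors. The mean was 9.14 ± 0.50 in lung tumors and 7.88 ± 0.29 in adjacent normal lungs (SD, n = 4 each), which is 1.26 higher on the log2 scale (limma standard error 0.27), or 2.39-fold, and 1.59 higher than the 7.54 ± 0.40 of non-transgenic lungs (SD, n = 4), or 3.02-fold. Among the 45036 others, 842 were higher by more against adjacent normal lung. Ptgs1 lies on chr2:36216742-36258593.

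Ptgs2, the form that inflammatory signals and growth factors induce, had log2 signals in 1417262_AT of 2.60, 3.89, 3.21 and 4.58 in lung tumors 1 to 4, 6.0, 6.18, 6.73 and 6.32 in adjacent normal lungs 1 to 4 and 6.42, 6.22, 6.12 and 7.44 in non-transgenic lungs 1 to 4. All tumors were below all lungs, and only tumor 4 was above the table's median. The mean was 3.57 ± 0.85 in lung tumors and 6.31 ± 0.31 in adjacent normal lungs (SD, n = 4 each), a difference of -2.73 (limma standard error 0.40), or 6.65-fold lower in tumors, and 402 of the others were lower by more. Tumor 2, at 3.89, lay between tumors 3 and 4. Against non-transgenic lung the difference was -2.98, with non-transgenic lung 4 the brightest of the 8 lungs.

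The fainter Ptgs2 probe set, 1417263_AT, had log2 signals of 2.64, 2.27, 2.48 and 2.59 in lung tumors 1 to 4, 3.17, 3.16, 3.25 and 3.26 in adjacent normal lungs 1 to 4 and 3.15, 2.94, 3.44 and 4.62 in non-transgenic lungs 1 to 4. Its tumors were below all lungs as well, but 11 of the 12 arrays were below the table's median and the exception was non-transgenic lung 4. The difference between tumors (2.5 ± 0.16) and adjacent normal lungs (3.21 ± 0.05, SD, n = 4 each) was -0.71, which became -0.40 with values under the 25th percentile of the table raised to it. Non-transgenic lung 4 was the highest of the 12 in both probe sets of Ptgs2, a gene on chr1:150100031-150108234.

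**Figure D2:**
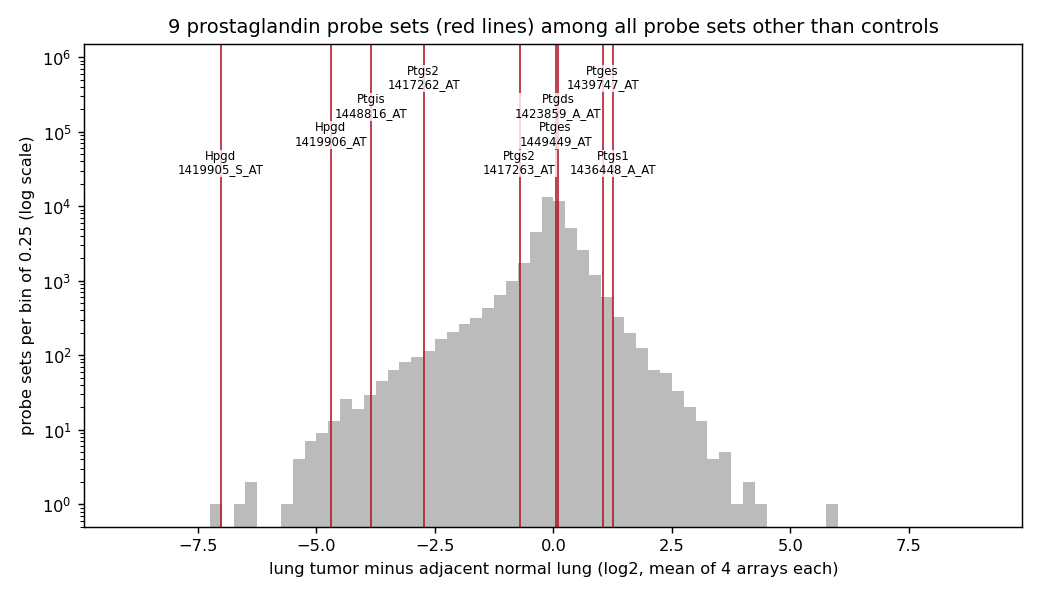
Histogram of the difference between the means of lung tumors and adjacent normal lungs on the log2 scale (horizontal axis) over 45037 probe sets, in bins of 0.25 with the number of probe sets on a log axis. Red lines mark the 9 prostaglandin probe sets, with 1419905_S_AT of Hpgd at -7.02 at the far left and Ptgs1 at 1.26 the farthest to the right among them.

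The terminal synthases had 3 different patterns. Ptgis, prostacyclin synthase, whose product widens blood vessels and holds back platelet clumping, was lower in tumors. Its log2 signals (1448816_AT) were 5.67, 9.05, 4.76 and 5.07 in lung tumors 1 to 4, 10.12, 10.08, 9.84 and 9.92 in adjacent normal lungs 1 to 4 and 9.25, 9.59, 9.91 and 9.80 in non-transgenic lungs 1 to 4. Tumors 1, 3 and 4 were far below every lung, whereas tumor 2 was only 0.20 below the lowest lung. The mean was 6.14 ± 1.98 in lung tumors and 9.99 ± 0.13 in adjacent normal lungs (SD, n = 4 each), a difference of -3.85 (limma standard error 0.71), or 14.4-fold lower in tumors, and without tumor 2 it was -4.82, or 28.3-fold. Tumor 2 kept 58.9% of the mean lung signal on the linear scale, where the other tumors were at 3.01% to 5.67%. For Hpgd (1419905_S_AT) the same tumor was at 5.59% and the others at 0.32% to 0.52%. Tumor 2 was thus nearer to lung in Ptgis than in Hpgd. On the log2 scale tumor 2 was 16.4% of the way from the lungs to the other tumors for Ptgis and 78.0% for Ptgs1. For Hpgd it was 52.7% of the way in 1419905_S_AT and 83.2% in 1419906_AT. This tumor was singled out after its values had been seen. Ptgis lies on chr2:167203194-167252150.

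Ptges, the microsomal prostaglandin E synthase that is often induced together with Ptgs2, was higher in tumors in 1 of its 2 probe sets. In 1439747_AT the log2 signals were 5.79, 6.02, 6.35 and 5.38 in lung tumors 1 to 4, 5.08, 5.07, 4.20 and 5.03 in adjacent normal lungs 1 to 4 and 4.99, 4.81, 4.44 and 5.20 in non-transgenic lungs 1 to 4. The lowest tumor, number 4, was 0.19 above the highest lung, and tumor 2 was the second highest. The mean was 5.89 ± 0.41 in lung tumors and 4.85 ± 0.43 in adjacent normal lungs (SD, n = 4 each). That is 1.04 higher in tumors on the log2 scale (limma standard error 0.26), or 2.06-fold. Without adjacent normal lung 3, the lowest of the 12 arrays in this probe set, tumors were 0.83 higher. Against non-transgenic lung they were 1.03 higher.

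The other Ptges probe set, 1449449_AT, had log2 signals of 4.18, 4.39, 4.59 and 4.03 in lung tumors 1 to 4, 4.10, 4.08, 4.78 and 4.03 in adjacent normal lungs 1 to 4 and 3.75, 3.85, 4.07 and 4.06 in non-transgenic lungs 1 to 4. Tumors overlapped both kinds of lung, most of the 12 arrays were below the table's median, and the means were 4.30 ± 0.25 in lung tumors and 4.25 ± 0.35 in adjacent normal lungs (SD, n = 4 each), with a difference of 0.048 (limma standard error 0.19). Without adjacent normal lung 3, the brightest of the 12 here it was 0.22. Against non-transgenic lung it was 0.36, and the groups still overlapped. The same array was thus lowest in 1 Ptges probe set and highest in the other, and which of them follows the transcript was not tested. Ptges lies on chr2:30889471-30931020.

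Ptgds, the lipocalin-type prostaglandin D synthase, had nearly the same faint signal in all groups. In 1423859_A_AT, whose suffix marks probes shared by several transcripts of 1 gene, the log2 signals were 4.79, 4.69, 4.68 and 4.65 in lung tumors 1 to 4, 4.24, 4.63, 5.02 and 4.55 in adjacent normal lungs 1 to 4 and 4.96, 4.71, 5.14 and 4.71 in non-transgenic lungs 1 to 4. The tumors were tightly grouped inside the range of the lungs, though without adjacent normal lung 3, at 5.02, they were above the other adjacent normal lungs. Means were 4.70 ± 0.06 in lung tumors, 4.61 ± 0.32 in adjacent normal lungs and 4.88 ± 0.21 in non-transgenic lungs (SD, n = 4 each), and the differences of tumors were 0.095 and -0.18 (limma standard error 0.17). Ptgds lies on chr2:25466709-25470110.

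Set against the adjacent normal lung of the same number, Hpgd, Ptgs2 and Ptgis were lower and Ptgs1 and Ptges (1439747_AT) higher in each of 4 tumors. Their groups did not overlap, so any pairing would have given the same directions, and only the sizes depend on it. For 1419905_S_AT the differences were -8.43, -4.42, -7.46 and -7.77 in numbers 1 to 4, and for 1419906_AT they were -4.63, -4.27, -4.87 and -5.01. The smallest decrease was that of number 2 in both. For Ptgis the differences were -4.44, -1.03, -5.08 and -4.86, and for Ptgs2 (1417262_AT) -3.39, -2.29, -3.52 and -1.74. For Ptgs1 they were 1.15, 0.76, 1.18 and 1.93, and for Ptges (1439747_AT) 0.70, 0.95, 2.15 and 0.35. The 2.15 of Ptges belongs to number 3, whose adjacent normal lung stood apart. Ptgds and 1449449_AT of Ptges had both signs, from -0.33 to 0.55 and from -0.19 to 0.31.

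**Figure D3:**
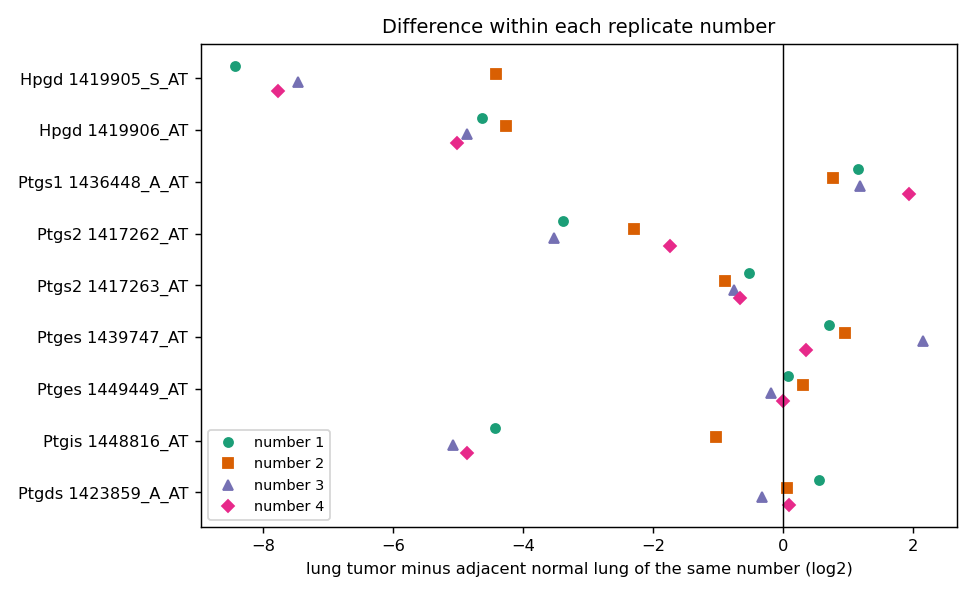
Lung tumor minus adjacent normal lung of the same replicate number on the log2 scale (horizontal axis) for the 9 probe sets, with a symbol for each of the 4 numbers. Number 2 has the smallest decrease for Hpgd (-4.42 and -4.27) and Ptgis (-1.03), and Ptgds has points on both sides of 0.

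Adjacent normal lung and non-transgenic lung were compared in a test, since this contrast did not choose the genes. They differ at least by the transgene and by lying beside a tumor. The paper also lists NCI Frederick as the source of the non-transgenic mice, while its authors had described the transgenic lines earlier. None of the 7 probe sets tested passed an adjusted p of 0.05 in limma, and none had an unadjusted p under 0.05, where 0% and 3.55% of the 23538 probe sets tested did. Hpgd averaged 11.43 ± 0.18 in adjacent normal lungs and 11.31 ± 0.24 in non-transgenic lungs (SD, n = 4 each), a difference of 0.12 with a limma standard error of 0.68 (limma adjusted p = 1.00). This error takes in the spread of the tumors, and with only the 8 lungs in the fit it was 0.15 (limma adjusted p = 0.84). For 1419906_AT the difference was 0.11 (limma adjusted p = 0.86 with the 8 lungs). With the 8 lungs the difference of Ptgis was 0.35 (limma standard error 0.16, adjusted p = 0.76) and that of Ptgs1 0.34 (limma standard error 0.22, adjusted p = 0.76). Those of Ptgs2 (1417262_AT), Ptgds and Ptges (1439747_AT) were -0.25, -0.27 and -0.013, and the groups of all 9 probe sets overlapped, where 4.13% of all 45037 did not. Over all alternatives run, the limma adjusted p of the 7 was 0.63 to 1.00. A p above the threshold does not show that the 2 kinds of lung are alike.

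**Figure D4:**
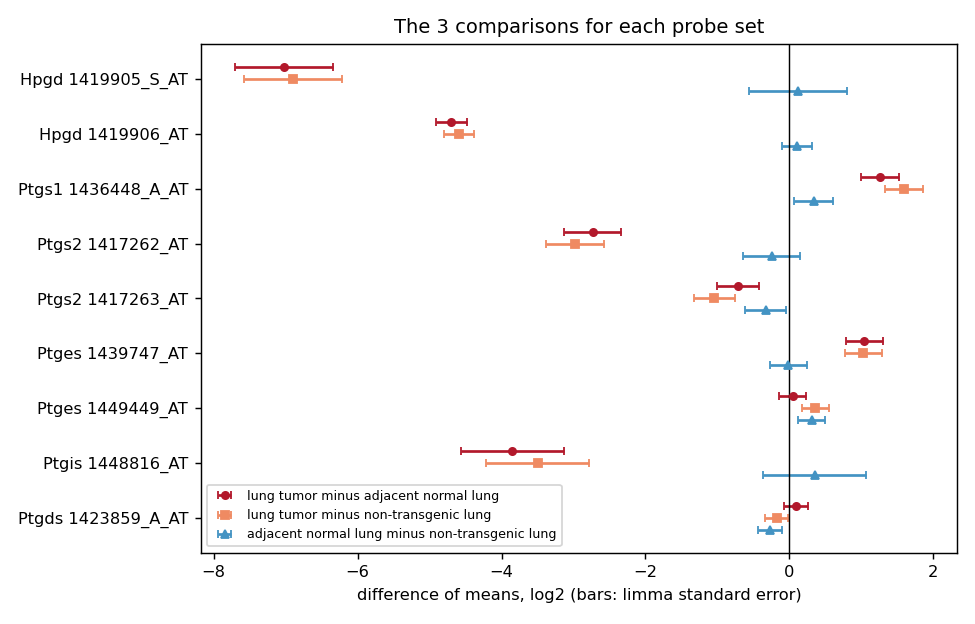
Difference of group means on the log2 scale (horizontal axis) with limma's standard error for each probe set, for lung tumor minus adjacent normal lung, lung tumor minus non-transgenic lung, and adjacent normal lung minus non-transgenic lung. The differences between the 2 kinds of lung are at most 0.35 in size, while those of tumors reach -7.02.

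The probe sets whose profile was most like that of Hpgd were sought by the root mean square difference to 1419905_S_AT over 12 arrays, after the mean of each probe set had been removed. The nearest of 23537 was 1449533_AT, at 0.33 log2 units, and the next was 1451527_AT, at 0.65, neither of which the tables used here pair with a gene. The nearest averaged 4.33 in lung tumors, 10.76 in adjacent normal lungs and 10.63 in non-transgenic lungs, so that it shared the large decrease in tumors. The other Hpgd probe set was at rank 55 (1.34), since its decrease was smaller, Ptgis at rank 112 (1.59) and Ptgs2 (1417262_AT) at rank 482 (2.18). Ptgs1 was among the least alike, at rank 22927. Without tumor 2, 4 of the 5 nearest stayed among the 5 nearest, and when only deviations within the groups were compared, 1 did.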

How the data were processed

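Total RNA of 12 samples in 3 groups of 4 was hybridized as biotin-labelled cRNA to Affymetrix GeneChip Mouse Genome 430 2.0 arrays. The authors deposited a table of log2 values, 1 for each probe set in each sample (1.50 to 14.51), that had been corrected for background and normalized. Per the methods, this was done by Robust Multichip Average with GeneSifter. GCRMA, with no version, stands in the submitters' processing notes instead. Which of them made the table is unknown. They treat low signals differently, which bears on the folds of dim probe sets. No detection calls or scan dates were used. The number of arrays limits the precision.

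The genes, lists and comparisons were chosen with earlier results of these data known. By rule, the text names all 9 members, other pathway genes past the threshold, and the 5 probe sets most like Hpgd that a table pairs with a gene. The tables used here pair no probe set with a gene, so lists of other prostanoid genes and of cell type markers were not analysed here. Tests covered probe sets with 4 or more arrays over the median of the table (4.18), 23538 of 45037 (52.3%). limma 3.58.1 in R 4.3.3 (lmFit, eBayes) was fitted over 3 groups without a block, with Benjamini-Hochberg adjustment over all probe sets tested. Standard errors of the 2 fainter members came from the same fit with them added. The script was tested on simulated data. Tumor and adjacent normal lung of a number were paired by the design text and the order of the sample codes. Their deviations from the group means correlated by -0.030, 0.098, 0.069 and 0.11 in numbers 1 to 4. The highest correlation of each tumor with an adjacent normal lung of another number was 0.037, 0.14, 0.075 and 0.030. Only tumor 4 thus correlated most with the lung of its own number, and these values do not settle the pairing. Alternatives were other filters, quantile normalization, median centring, a floor, each array left out, other variance models, fewer arrays in the fit, the mouse as a block, and the methods' analysis of variance. No pair of arrays correlated above 0.9935, so each was counted as a separate sample.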

Additional observations from a re-analysis of the deposited data

Results flagged for a closer look

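Of 27 sets of 4 arrays (9 probe sets in 3 groups), 3 held an outlying array by Dixon's test, which chance alone passes in about 1 of 20 sets. Tumor 2 had a log2 signal of 7.21 for Hpgd (1419905_S_AT), and the other tumors 3.09 to 3.78. Adjacent normal lung 3 had 4.20 for Ptges in 1439747_AT, and the other adjacent normal lungs 5.03 to 5.08. The same array had 4.78 for Ptges in 1449449_AT, and the others 4.03 to 4.10.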

How the results depend on the processing

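Across the alternatives, each of the 7 probe sets whose tumors did not overlap the adjacent normal lungs kept its direction, with the difference from -8.02 to -6.58 for 1419905_S_AT of Hpgd, -4.87 to -3.39 for Ptgis, 1.03 to 1.42 for Ptgs1 and 0.78 to 1.21 for Ptges (1439747_AT). Leaving arrays out cannot turn the direction where groups do not overlap. Other filters and variance models leave the mean differences as they are. Only quantile normalization and median centring could have turned a direction. The count of 7 became 8 without adjacent normal lung 3, with or without tumor 2, and against non-transgenic lung it became 8 after quantile normalization, after median centring, and without tumor 1 or tumor 4. With 1 array left out it was 7 to 8 in both. Median centring moved the median of all tested probe sets by 0.12 for tumor against adjacent normal lung. Between the 2 kinds of lung, no member was called under any alternative run, and the sign of small differences turned in 5 cases: for Ptges (1439747_AT) it was 0.20 without adjacent normal lung 3 (also without tumor 2), 0.030 without non-transgenic lung 1 and 0.10 without non-transgenic lung 4 (range with 1 array left out -0.15 to 0.20), and for Ptgs2 (1417262_AT) 0.051 without non-transgenic lung 4 (range -0.39 to 0.051). The 6765 probe sets called for tumor against adjacent normal lung were 4331 in a fit of those 8 arrays alone. They were 3282 with a replicate block in the same 8 arrays, and 7182 with the mouse as a random block over all 12. The stricter filter, which tests fewer, gave 4069. Without tumor 2 and adjacent normal lung 3, an alternative chosen after the data were seen, there were 11206. With 1 array left out they numbered 4476 (without tumor 3) to 10595 (without tumor 2). Of the 6765, 3102 were higher and 3663 lower. After median centring 7914 were called, 4834 higher and 3080 lower. The replicate block leaves the members' mean differences as they are and gave a standard error of 0.66 for 1419905_S_AT. For tumor against non-transgenic lung, the 7652 called were 4246 under the stricter filter, 12304 without both arrays and 5370 to 11011 with 1 array left out. The 0 between the kinds of lung became 5 without both arrays. Across the 3 groups, 6734 were called, and 9335 unadjusted or 5733 adjusted with the methods' analysis of variance. Of the 5 probe sets most like Hpgd, 1 was shared when only deviations within groups were compared. The counts of the pathway lists and their alternatives were not run, since no table used here pairs probe sets with genes. Signals under the table's median make the folds of Hpgd and Ptgs2 uncertain.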
